A study of Mus musculus with 4 samples.

Results

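Dermal fibroblasts were picked out of single-cell libraries of sorted embryonic mouse skin by their collagen transcripts. A barcode was kept when 2000 or more genes were seen in it and less than 10% of its UMIs were mitochondrial (UMIs are unique molecular identifiers, which count each captured mRNA molecule once). It was called a fibroblast when Col1a1, Col1a2 and Col3a1, the chains of collagens I and III, together reached at least 20 UMIs per 10000 UMIs of the cell. Cells were left out when Krt5 and Krt14 reached 10, C1qa, C1qb and C1qc reached 5, Pecam1, Cdh5 and Cldn5 reached 3, or Pmel, Dct, Mlana and Tyrp1 reached 3 on the same scale. The rule gave 519 fibroblasts of 11221 kept cells and 19789 barcodes. Because these transcripts chose the cells, the levels of the 3 collagen genes in them are a description and were not tested as markers.

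Fibroblasts are the main cells of the dermis, where they secrete the collagens, elastic fibres and proteoglycans that give skin its strength. In embryonic skin they also signal to the epidermis above them, and they divide into an upper dermis, a lower dermis with adipocyte precursors, and dermal condensates, clusters of cells under each forming hair follicle that receive Sonic hedgehog from the epithelium. Basal keratinocytes, for their part, rest on a basement membrane to which both layers contribute.

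The libraries came from dorsal skin, E16.5 per the labels, with 2 Ctrl and 2 TKO embryos and 1 embryo per library. The study's list of litters gives an earlier day for its single-cell litter, and the data do not settle which is right. Ctrl embryos were Suv39h1 f/f, Suv39h2-/-, Setdb1 f/f and K14CreERT2-, and TKO (triple knockout) embryos carried the same alleles with K14CreERT2+. All embryos received Tamoxifen, which the litter list places at several embryonic days before collection. Suv39h1, Suv39h2 and Setdb1 encode the enzymes that write H3K9me3, a methylation of histone H3 found on repressed chromatin. All groups therefore lacked Suv39h2 and carried floxed Suv39h1 and Setdb1. The K14 promoter that drives the recombinase is active in basal keratinocytes, where the study describes its action as mosaic, and it is not a fibroblast promoter. Cells had been sorted as positive for Epcam, an epithelial adhesion protein, and for α6 integrin (Cd49f, encoded by Itga6), which marks cells on the basement membrane, so these fibroblasts are cells that passed a gate meant for keratinocytes. The study itself removed fibroblasts as contaminating cells, by Col1a1 and Pdgfra.

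The 4 matrices held 3804 to 5785 barcodes and 70749496 to 89655247 UMIs each, and 2161 to 3391 cells per library were kept. Keratinocytes for comparison (Krt5 and Krt14 at least 50 per 10000 UMIs, collagens under 20, the other limits as above) numbered 1129 to 2150 per library and 6309 in all. Across libraries, 39 barcodes recurred among all barcodes, 9 among kept cells and 0 among fibroblasts. The Y-linked genes Ddx3y, Eif2s3y, Kdm5d and Uty were present in the fibroblasts of all 4 libraries and Xist had at most 1 UMI in each. The study's methods give both sexes in each group of its sequencing experiments, which these counts do not show.

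Fibroblasts numbered 107 and 105 in Ctrl replicates 1 and 2 and 172 and 135 in TKO replicates 1 and 2. Their median depth was 14820, 13103, 17258.5 and 15016 UMIs, with medians of 4433, 4227, 4904 and 4590 genes per cell in the same order. The summed fibroblasts of the Ctrl libraries held 1729562 and 1480250 UMIs, those of the TKO libraries 3297593 and 2361502. The TKO sums were therefore the deeper ones, from more cells as well as from more UMIs per cell. Near the collagen limit, 12 fibroblasts lay between 20 and 30 per 10000 UMIs and 16 other kept cells lay between 10 and 20. The median cell was far above it, at 314 and 402 in Ctrl and 297 and 309 in TKO. A further 47 cells passed the collagen limit but not the others, 6, 5, 30 and 6 per library. In TKO replicate 1, 24 of the 30 exceeded the limit for the complement genes C1qa, C1qb and C1qc, which mark macrophages.

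Some cells that met the rule also carried epithelial or blood transcripts. Leiden clustering of the fibroblasts, done after the data had been seen, gave 2 small clusters led by such genes. The 12 cells of the first were led by haemoglobin genes and by Krt1, Krt10 and Perp, and the 7 of the second by S100a9, Edar, Shh and Krt17. All 143 UMIs of S100a9 were in 1 cell of TKO replicate 1. These 19 cells are called mixed cells here. They numbered 3 and 0 in Ctrl and 6 and 10 in TKO, and their median of 34283.5 and 29677 UMIs lay above that of the other fibroblasts. Whether each is a doublet (a droplet with RNA of more than 1 cell) was not tested. They were kept, as the rule has it, and the test between genotypes and the comparison of cell types were repeated without them.

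The label held against markers that the rule did not use. Levels are given in CPM, UMIs per 1000000 UMIs of the summed cells. For orientation, Col1a1, which the rule used, stood at 9365 and 13007 CPM in Ctrl and 9965 and 10019 CPM in TKO, against 1.52 to 3.41 CPM in keratinocytes. Of 20 fibroblast identity genes that the rule did not use, 19 were at 100 CPM or more in all 4 libraries. Between genotypes their median log2 fold change was −0.18, with 0 higher in both TKO libraries, 4 lower and 16 overlapping, where 18.6% of all tested genes were higher and 12.4% lower. Thy1, a surface protein of fibroblasts and neurons, was the exception at 35.2 to 80.4 CPM. Pdgfra, the receptor for platelet-derived growth factor A that marks the fibroblast lineage, had 219 and 242 CPM in Ctrl and 179 and 210 in TKO, against at most 0.118 in keratinocytes. With every cell thinned to 4000 UMIs, Pdgfra had a UMI in 51.1% to 57.1% of fibroblasts per library and in at most 0.0465% of keratinocytes. Lum, a collagen-binding proteoglycan, had a UMI in 86.9% to 95.2% of fibroblasts and at most 0.443% of keratinocytes. The transcription factor gene Prrx1 ranged from 515 to 642 CPM and Twist2 from 362 to 586 CPM in fibroblasts, and neither passed 0.226 CPM in any keratinocyte sum. Dcn, another proteoglycan often used as a fibroblast marker, separated the cells far less. It had 3303 and 4820 CPM in Ctrl fibroblasts and 4086 and 3292 in TKO fibroblasts, but also 805 to 1260 CPM in keratinocytes, 71.0% to 83.0% of which held a UMI of it after thinning.

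**Figure D1:**
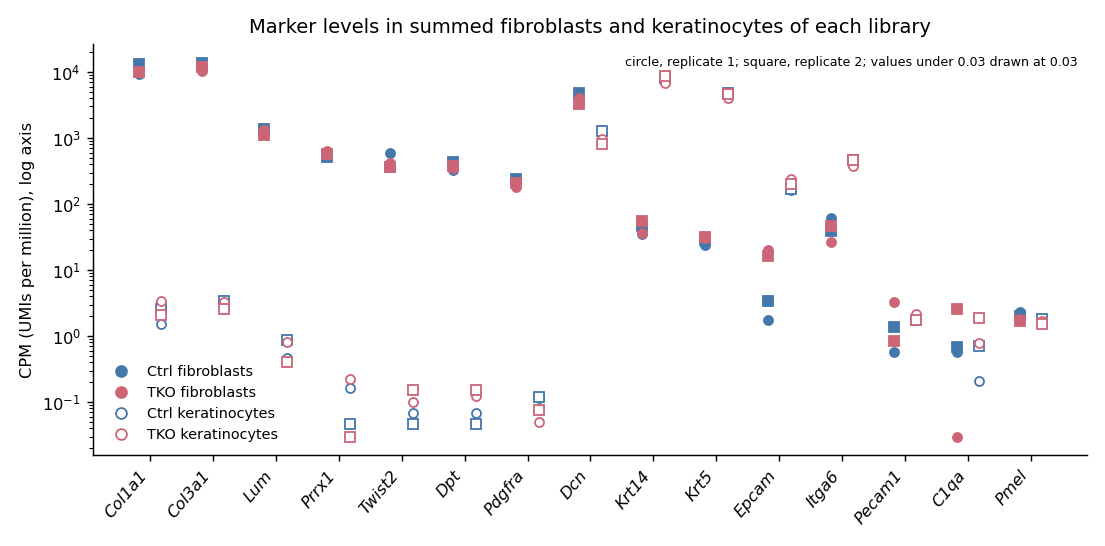
Level of marker genes in the summed fibroblasts (filled) and keratinocytes (open) of each library, in CPM on a log axis, with Ctrl in blue and TKO in red. Fibroblast genes such as Lum and Pdgfra are far higher in fibroblasts in all 4 libraries, Dcn is high in both cell types, and Epcam and Itga6, the genes of the sort, are higher in keratinocytes.

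Ranked by the ratio of mean CPM in fibroblasts over keratinocytes among genes at 100 CPM or more in all fibroblast libraries, the 15 leading genes were Cd34, Tmeff2, Mfap5, Prrx1, Twist2, Dlk1, Col1a1, Fibin, Col3a1, Col6a2, Ebf1, Lrrc17, Col6a1, Dpt and Ldb2. The ratio fell from 6171 for Cd34, a surface sialomucin, to 3741 for Ldb2. Their keratinocyte means were 0.0427 and 0.0898 CPM, so for genes this low there the ratio and its rank rest on few UMIs. The list describes the cells the collagen rule picked and was not tested.

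The genes of the sort were low. Epcam had 3 and 5 UMIs in the Ctrl fibroblasts and 66 and 39 in the TKO fibroblasts, and of the latter 53 and 35 were in mixed cells. Keratinocytes had 161 to 237 CPM of it. After thinning, Epcam had a UMI in 1, 0, 3 and 3 fibroblasts per library, and in 43.1% to 54.7% of keratinocytes. Itga6 had 60.7, 39.2, 27.0 and 46.6 CPM in Ctrl replicates 1 and 2 and TKO replicates 1 and 2, against 372 to 462 CPM in keratinocytes.

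Markers of other cell types stood as follows in the summed fibroblasts. The rule had capped Krt5, Krt14, C1qa, C1qb, C1qc, Pecam1, Cdh5, Cldn5, Pmel, Dct, Mlana and Tyrp1, so the sums of the keratinocyte, immune, endothelial and melanocyte lists were in part fixed by it. The 12 keratinocyte genes summed to 299 to 2211 CPM, and to 167 to 415 CPM without the mixed cells. The 6 erythroid genes summed to 9727 and 29.7 CPM in Ctrl and to 7209 and 14185 CPM in TKO, so the groups overlapped. Without the mixed cells the sums were 24.8, 29.7, 17.6 and 6124 CPM, so cells with blood transcripts remained outside the mixed clusters. The 8 immune genes summed to 2.89 to 16.1 CPM and the 6 Schwann cell genes to 3.38 to 24.1 CPM. For endothelial genes the sum was 78.1 to 192 CPM, nearly all of it Tek, an angiopoietin receptor, while Emcn was at 0 in all libraries. Cartilage and bone genes summed to 77.7 to 127 CPM. Mitf accounted for most of the 32.1 to 46.8 CPM of melanocyte genes. Of the muscle genes, which summed to 10.4 to 62.7 CPM, Myod1, Pax7 and Myf5 were at 0. Mural genes, those of pericytes and vascular smooth muscle, summed to 335 and 334 CPM in TKO and to 223 and 180 CPM in Ctrl. Of 7 tested, 2 were higher in both TKO libraries, 0 lower and 5 overlapped, where 18.6% of all tested genes were higher. Acta2, smooth muscle actin, gave most of the gap in the sum, at 75, 4, 427 and 173 UMIs per library (log2 fold change 2.07, SE 0.80, edgeR adjusted p 1). The part of these cells in the results below was not tested beyond leaving out 272 fibroblasts with UMIs of at least 2 markers of a mural, muscle, Schwann or cartilage list.

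The targeted genes were examined next. Setdb1 (chromosome 3, 95229399 to 95264541, GRCm39) had 55.5 and 37.2 CPM in Ctrl fibroblasts and 41.2 and 52.9 CPM in TKO fibroblasts, so the groups overlapped. Its log2 fold change, TKO over Ctrl, was −0.02 (SE 0.262, 95% confidence interval −0.66 to 0.61, edgeR adjusted p 1). In the keratinocytes of the same libraries it was −0.65 (edgeR adjusted p 0.0301), and the difference between the cell types, 0.62 on the log2 scale (SE 0.22), did not pass the threshold (edgeR adjusted p 0.373). Suv39h1 (chromosome X, 7927403 to 7940999) had 18 UMIs in each Ctrl library and 65 and 39 in TKO, with both TKO libraries higher per UMI (log2 fold change 0.65, SE 0.298, edgeR adjusted p 1). Suv39h2 (chromosome 2, 3455774 to 3476146), deleted in both groups, had 11.6, 3.38, 8.79 and 7.62 CPM (log2 fold change 0.07, SE 0.556, edgeR adjusted p 1). Where these 3' counts lie relative to the floxed exons was not examined, and all 3 genes overlap genes on the opposite strand.

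Fibroblasts made up a larger share of the kept cells in both TKO libraries. In Ctrl they were 3.35% (2.75 to 4.03, 95% interval by Clopper-Pearson) and 3.10% (2.54 to 3.74) of cells. In TKO they were 7.96% (6.85 to 9.18) and 5.46% (4.60 to 6.43), with no overlap between the groups or their counting intervals. The means were 3.22% ± 0.178 in Ctrl and 6.71% ± 1.77 in TKO (SD, n = 2), a difference of 3.49 percentage points (exact two-sided permutation test, p = 0.333, the smallest value that 2 against 2 libraries allow). Relative to keratinocytes, there were 6.06 and 4.88 fibroblasts per 100 in Ctrl and 15.2 and 10.7 in TKO. These are shares of a sort for epithelial surface proteins and not of the skin, so a change in the dermis, in the keratinocytes or in the gate cannot be told apart. The intervals here and below cover counting error only.

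**Figure D2:**
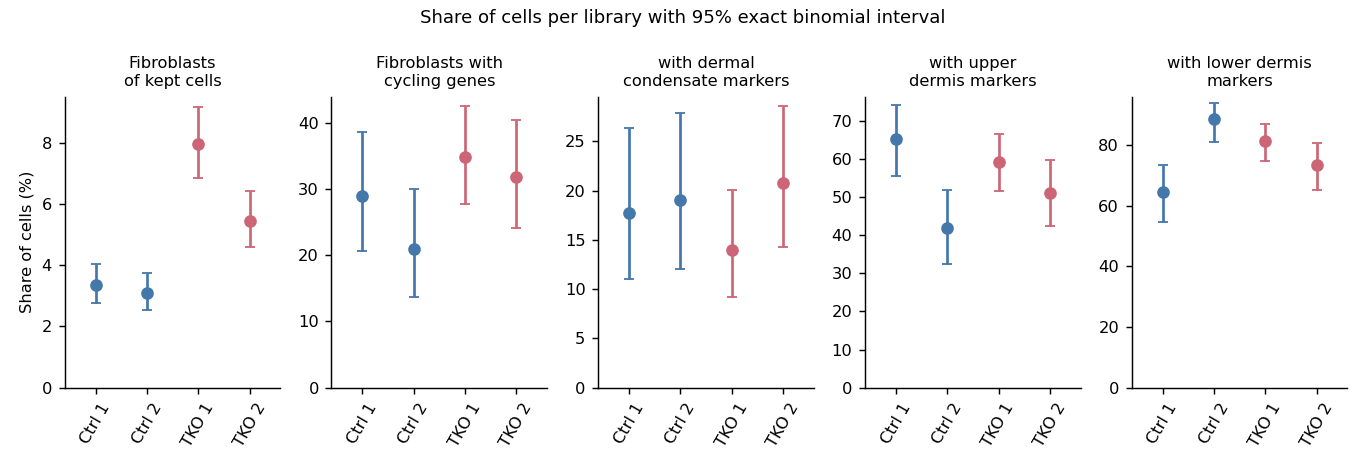
Share of cells in each library, in percent, with 95% exact binomial intervals for counting error. The fibroblast share of kept cells lies between 3.10% and 3.35% in Ctrl and between 5.46% and 7.96% in TKO, while the dermal condensate, upper dermis and lower dermis shares of fibroblasts overlap between the groups.

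To ask whether the fibroblasts beside a knockout epidermis differed in expression, UMIs were summed over the fibroblasts of each library and the 4 sums were tested. No gene passed with the filter on low counts. Of 11715 genes tested, edgeR's quasi-likelihood test called 0 at an adjusted p under 0.05 (0%), with 0.715 as the smallest adjusted p, and 431 had an unadjusted p under 0.05 (3.68%). DESeq2 called 1. Without the filter, edgeR called 202 genes, 163 of which had been tested with it, and Ptprz1, described below, had an adjusted p of 3.16e-13 there against 0.715 with the filter. In 18.6% of the tested genes both TKO libraries were above both Ctrl libraries, and in 12.4% both were below, and the counts of list members given later are to be read against these shares. In the keratinocytes of the same libraries 1987 of 18554 genes were called (10.7%). With keratinocytes cut to the same number of cells per library, 291 of 11822 were called (2.46%), in sums that were still deeper at 2059259 to 6338213 UMIs.

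The precision behind this count was as follows. Among 1950 genes at 100 CPM or more the median SE of the log2 fold change was 0.198, and 99.4% of these genes had an estimate within 2-fold of no change. Between 30 and 100 CPM the median SE was 0.218, and between 10 and 30 CPM it was 0.311, with 99.0% and 97.1% of genes within 2-fold. For genes at 100 CPM or more the median size of the change was 0.126 on the log2 scale in fibroblasts and 0.209 in keratinocytes cut to the same number of cells, whose median SE was 0.128.

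**Figure D3:**
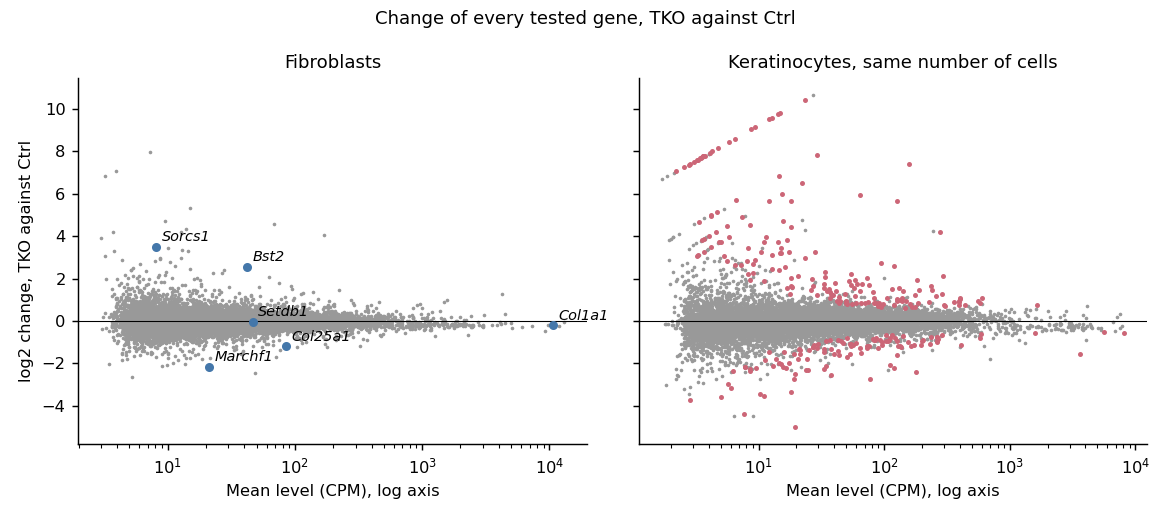
Log2 fold change, TKO over Ctrl, against mean level in CPM on a log axis, for each tested gene in summed fibroblasts (left) and in keratinocytes cut to the same number of cells per library (right). Red points are genes with an edgeR adjusted p under 0.05, of which there are 291 on the right and 0 on the left, and blue points are named genes.

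Because none was called, genes with the smallest p in each direction are given as values. Ptprz1 (chromosome 6, 22875358 to 23054236), a receptor-type tyrosine phosphatase, was found as 2 UMIs per Ctrl library and as 112 and 46 UMIs per TKO library, or 1.16, 1.35, 34.0 and 19.5 CPM. In TKO those UMIs lay in 36 of 172 and 14 of 135 fibroblasts, and 27 of the 46 in replicate 2 came from mixed cells. Its log2 fold change was 4.34 (SE 0.533, edgeR adjusted p 0.715). Sorcs1 (chromosome 19, 50131737 to 50667093), a sorting receptor, also had 2 UMIs in each Ctrl library, and 52 and 34 in TKO. None of its UMIs was in a mixed cell, but 12 and 6 TKO fibroblasts held all of them, up to 23 in 1 cell. The 95% confidence interval of its log2 fold change was 2.37 to 4.63 (edgeR adjusted p 0.715). Both groups were thus separate for these 2 genes, at levels carried by a minority of cells.

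The other 3 were epithelial genes. Krt17, a keratin of hair follicle and stressed epithelium, had 2.89 and 2.70 CPM in Ctrl and 19.1 and 26.7 CPM in TKO, with 54 and 48 of 63 and 63 TKO UMIs in mixed cells. Edar, the ectodysplasin receptor of hair placodes, reached 58 and 45 UMIs in TKO, with 54 and 42 of them in mixed cells, against 0 and 2 in Ctrl. Shh, the hedgehog ligand made by the hair germ, was absent from either Ctrl library at this depth (0 UMIs) and counted 45 and 36 in TKO, where 44 and 36 were in mixed cells. Without those cells Shh was left with 1 UMI in TKO.

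Among the genes with lower TKO values, Marchf1, an E3 ubiquitin ligase gene, had 28.9 and 39.9 CPM in Ctrl and 8.79 and 6.78 CPM in TKO (log2 fold change −2.16, SE 0.309, edgeR adjusted p 0.746). Its UMIs lay in few cells, 4, 12, 15 and 3 per library, and 31 of the 50 in Ctrl replicate 1 in 1 cell. Col25a1 (chromosome 3, 129925150 to 130393532), a membrane-bound collagen chain, had 116 and 118 CPM in Ctrl and 60.7 and 45.3 CPM in TKO (log2 fold change −1.17, SE 0.204, 95% confidence interval −1.67 to −0.68, edgeR adjusted p 0.853). It was seen in 38, 37, 64 and 33 cells. Plekha5, a pleckstrin homology domain gene, had 267, 273, 148 and 153 CPM (log2 fold change −0.88, SE 0.169, edgeR adjusted p 0.986). Both TKO libraries lay below both Ctrl libraries for these genes, and leaving out the mixed cells moved none of their levels across that gap.

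The ribosomal pseudogene Rps13-ps1 had 16.8, 14.9, 3.94 and 3.81 CPM (log2 fold change −2.05, SE 0.359, edgeR adjusted p 0.853) against −2.26 in keratinocytes (edgeR adjusted p 0.00388). Near-identical copies of ribosomal genes share reads, so this value is uncertain.

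The gene that DESeq2 called, Bst2, falls outside the rule for named genes and was chosen after its values were seen, as was Plce1, which DESeq2 called only without the mixed cells. Bst2 (chromosome 8, 71986895 to 71990114) encodes tetherin, an interferon-induced membrane protein. It had 9.83 and 14.2 CPM in Ctrl and 45.5 and 99.9 CPM in TKO, in 11, 15, 48 and 45 fibroblasts. The log2 fold change was 2.56 (SE 0.464, edgeR adjusted p 0.942, DESeq2 adjusted p 0.0184). In keratinocytes, where edgeR called it (3.27, adjusted p 0.0404), it went from 1.20 and 1.58 CPM in Ctrl to 5.07 and 21.6 CPM in TKO. Plce1 (chromosome 19, 38469411 to 38773474), a phospholipase C gene, counted 37, 66, 423 and 255 UMIs. Without correction for depth, these lay in 16 of 107 and 26 of 105 Ctrl fibroblasts and in 86 of 172 and 58 of 135 TKO fibroblasts. Its log2 fold change was 1.81 (SE 0.340, edgeR adjusted p 0.986), and its keratinocyte level did not pass 1.03 CPM.

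Genes were then grouped by role. In the lists that follow, 0 members were called, so values are given and not changes, and the median of a list can be set beside the median of −0.01 over all tested genes.

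Of 15 fibrillar and associated collagen genes, the median log2 fold change was −0.20 (range −0.74 to 0.55). Both TKO libraries were above both Ctrl libraries for 1 (Col12a1) and below for 2 (Col6a1 and Col6a2), and the rest overlapped. Col1a1 differed by −0.20 (SE 0.25), Col1a2 by −0.18 (SE 0.24) and Col3a1 by −0.24 (SE 0.23). Col3a1 had 11576 and 13823 CPM in Ctrl and 10403 and 11745 in TKO. Col5a3, a minor fibril chain, reached 381 CPM in Ctrl replicate 2 and stayed at 141, 181 and 141 CPM in the other libraries. The summed collagens were 36686, 46296, 36304 and 37898 CPM, with Ctrl replicate 2 the highest and the other 3 libraries close to each other.

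The 19 genes that modify, fold and crosslink collagen had a median of −0.03, with 3 higher, 3 lower and 13 overlapping. Lox, the lysyl oxidase that crosslinks collagen and elastin, had 335 and 436 CPM in Ctrl and 589 and 449 CPM in TKO (log2 fold change 0.39, SE 0.24). Serpinh1, the collagen chaperone, had 1289, 1615, 1412 and 1155 CPM. P4ha3, a prolyl hydroxylase subunit, had 17.9, 28.4, 46.4 and 32.6 CPM (0.75, SE 0.31), the largest difference of this list.

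Elastic fibre and microfibril genes (15, median 0.07) held 3 with both TKO libraries higher and 2 with both lower. Eln, elastin itself, had 174 and 370 CPM in Ctrl and 416 and 504 CPM in TKO (log2 fold change 0.71, SE 0.36, edgeR adjusted p 1). Fbn2, the fibrillin of embryonic microfibrils, had 648 and 924 CPM in Ctrl and 1325 and 1123 in TKO (0.60, SE 0.25, edgeR adjusted p 1). Fbn1 overlapped, at 829, 1435, 1147 and 1209 CPM. Among 7 small leucine-rich proteoglycans (median 0.11), Bgn and Fmod were higher in both TKO libraries, Fmod from 6.94 and 9.46 to 22.4 and 11.9 CPM, and 5 overlapped.

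Of 11 basement membrane genes (median −0.02), 10 overlapped and Lama4, a laminin chain, was higher at 228 and 256 CPM in TKO against 204 and 228 CPM in Ctrl, groups separated by under 1 CPM. Lama2 spread within TKO from 304 to 752 CPM. Matrix proteases and inhibitors (12, median −0.25) had 0 genes higher and 3 lower, Mmp14, Mmp16 and Mmp23. Mmp14, a membrane-bound collagenase, had 214 and 329 CPM in Ctrl and 206 and 192 in TKO (−0.49, SE 0.25). In each of these matrix lists most members overlapped between the groups.

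**Figure D4:**
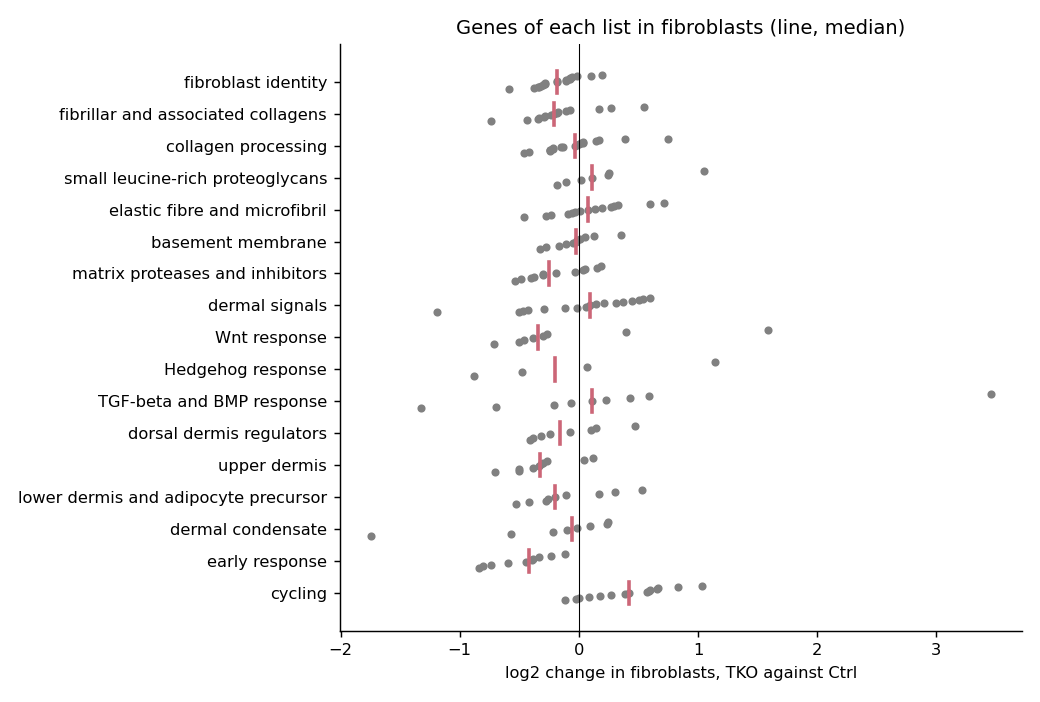
Log2 fold change in fibroblasts, TKO over Ctrl, of each tested gene in 17 lists, with a red line at the median of the list. No gene shown was called, and the medians lie between −0.42 for early response genes and 0.42 for cycling genes.

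Among 18 signals sent by dermal cells (median 0.09), 3 were higher in both TKO libraries, 2 lower and 13 overlapped. Bmp4, a BMP ligand, had 34.7 and 60.1 CPM in Ctrl and 24.0 and 18.2 CPM in TKO (log2 fold change −1.19, SE 0.326, unadjusted p 0.0095 and adjusted p 1 by edgeR). In the keratinocytes, where it was called, the log2 fold change was −1.74 (edgeR adjusted p 0.0103). Fgf7, a growth factor whose receptor is on keratinocytes, had 32.4 and 46.6 CPM in Ctrl and 60.4 and 54.2 CPM in TKO (0.50, SE 0.25, edgeR adjusted p 1). Fgf10, from the same family, overlapped at 109, 156, 99.5 and 122 CPM. Cxcl12, a chemokine, had 70.0 and 65.5 CPM in Ctrl and 45.8 and 58.0 in TKO. Igf1 overlapped, as did Kitl, the ligand for the melanocyte receptor Kit, at 489, 448, 486 and 537 CPM.

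Genes that respond to such signals came next. Of 8 Wnt response genes tested (median −0.34), Sp5 was higher and Lgr5 lower in both TKO libraries, Lgr5 at 97.7 and 101 CPM in Ctrl and 81.6 and 66.1 in TKO. For Sp5, 6 of 18 and 22 of 29 TKO UMIs were in mixed cells. Lef1 and Apcdd1 had their highest value in Ctrl replicate 1, 149 and 248 CPM, and overlapped otherwise. Of 4 hedgehog response genes, Ptch1, the receptor that hedgehog induces, spread from 81.0 CPM in TKO replicate 1 to 262 CPM in Ctrl replicate 1. Hhip, a hedgehog-binding inhibitor, had 30.6 and 18.9 CPM in Ctrl and 13.3 and 14.4 CPM in TKO (−0.88, SE 0.310, edgeR adjusted p 1). Among 9 TGF-beta and BMP response genes (median 0.11), 3 were higher in both TKO libraries, 1 lower and 5 overlapped. Tgfbi was the lower one, at 24.9 and 18.2 CPM in Ctrl and 16.1 and 11.0 CPM in TKO. Ccn2, a matricellular protein, counted 68 and 38 UMIs in TKO against 0 and 5 in Ctrl (3.46, SE 0.788, edgeR adjusted p 0.986). Its UMIs lay in 21 and 8 TKO cells, with 23 of the 38 in mixed cells.

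Regulators of the dorsal dermis (8, median −0.15) included En1, lower in both TKO libraries at 37.6 and 36.0 against 45.1 and 48.6 CPM, and Dact1, higher at 40.9 and 36.4 against 20.8 and 33.8 CPM. Tbx15 overlapped at 354, 282, 255 and 299 CPM. Early response genes (10, median −0.42) had 3 lower, Fosb, Ier2 and Nr4a1, and 7 overlapping. Ctrl replicate 2 stood highest in their sum, at 5463 CPM against 3000 in Ctrl replicate 1 and 3269 and 3057 in TKO. Such genes are known to respond to cell dissociation.

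The cycling list had more members in which the genotypes separated. Of 15 tested, 9 were higher in both TKO libraries, 0 lower and 6 overlapped, where 18.6% of all genes were higher, and 6 had an unadjusted p under 0.05. Mki67 had 96.6 and 101 CPM in Ctrl and 224 and 136 CPM in TKO (log2 fold change 0.83, SE 0.264, edgeR adjusted p 1). Ccnb1, the mitotic cyclin, had 30.1 and 18.2 CPM in Ctrl and 64.0 and 37.7 CPM in TKO (1.03, SE 0.349). Of 7 genes of DNA replication in the list, Rrm2 and Uhrf1 were among the 9, and Hells, Mcm5, Mcm6, Pcna and Tyms overlapped. Pcna had 109, 89.8, 103 and 102 CPM and Mcm6 57.8, 61.5, 51.9 and 61.4 CPM. TKO fibroblasts were also deeper, so the comparison per cell was made after thinning.

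After thinning to 4000 UMIs, 29.0% (20.6 to 38.5) and 21.0% (13.6 to 29.99) of Ctrl fibroblasts and 34.9% (27.8 to 42.5) and 31.9% (24.1 to 40.4) of TKO fibroblasts held at least 3 UMIs of the cycling list. The means were 25.0% ± 5.67 and 33.4% ± 2.14 (SD, n = 2), without overlap but with overlapping counting intervals (exact two-sided permutation test, p = 0.333). At 8000 UMIs the groups overlapped (exact permutation p = 0.667). Unthinned shares were 55.1%, 49.5%, 64.0% and 59.3%. In keratinocytes of the same libraries the thinned share was 67.1%, 60.3%, 82.6% and 76.4%. The part of free RNA from those keratinocytes in the fibroblast share was not tested.

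Cells with markers of dermal layers did not separate by genotype. Dermal condensate markers (at least 2 of 10 genes with a UMI after thinning) were found in 17.8% and 19.0% of Ctrl and 14.0% and 20.7% of TKO fibroblasts (exact permutation p = 1), and in 0 keratinocytes. Unthinned, that share was 44.9%, 47.6%, 47.1% and 47.4%. Its genes were not confined to condensate cells, as the cluster with 1614 CPM of Mfap5 (below) held 204 CPM of Rspo3 and 153 CPM of Bmp3. Foxd1 had a UMI in only 13, 4, 1 and 8 thinned fibroblasts, so the share is not a count of condensate cells. Lower dermis and adipocyte precursor markers were found in 64.5% and 88.6% of Ctrl and 81.4% and 73.3% of TKO fibroblasts (exact permutation p = 1), against 0.279% to 2.29% of keratinocytes. For the condensate list both Ctrl values lay between the TKO values, and for the lower dermis list both TKO values lay between the Ctrl values. Upper dermis markers gave 65.4% and 41.9% in Ctrl and 59.3% and 51.1% in TKO (exact permutation p = 1). That list held Lef1, Apcdd1 and other genes of keratinocytes too, 41.9% to 48.6% of which passed the same limit, so at least the share in Ctrl replicate 2 cannot be told from that level. Unthinned, the upper dermis share was 89.7%, 79.0%, 91.3% and 85.2%.

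For several genes of these lists the Ctrl libraries differed from each other more than the genotypes did. Dlk1, an imprinted gene of preadipocytes, had 2769 CPM in Ctrl replicate 1 and 6356 in Ctrl replicate 2, with TKO between them at 4810 and 3943. Mfap5 had 432 and 1281 CPM in Ctrl and 726 and 732 in TKO. Crabp1, a retinoic acid binding protein of the upper dermis, ran the other way, at 335 and 114 CPM in Ctrl and 306 and 168 CPM in TKO. Of 9 lower dermis genes tested, Ly6a was higher and Pparg lower in both TKO libraries. Of 10 upper dermis genes, Col23a1 and Ntn1 were lower in both. Of 8 dermal condensate genes tested (median −0.06), 0 were higher, 2 lower (Foxd1 and Tbx18) and 6 overlapped, and the list summed to 346 and 345 CPM in Ctrl and 294 and 354 CPM in TKO. Foxd1, a transcription factor of the dermal condensate, had 49.7 and 15.5 CPM in Ctrl and 6.98 and 13.6 CPM in TKO (log2 fold change −1.75, SE 0.580, 95% confidence interval −3.15 to −0.35, edgeR adjusted p 1), in 18, 8, 7 and 12 cells. Tbx18, from the same list, had 58.4, 40.5, 30.9 and 37.7 CPM. Sox18 ranged from 3.03 to 39.0 CPM within TKO alone.

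Clustering gave 9 clusters beside the mixed ones. They are described by their leading genes, without a test, since the same genes made them. The largest, 123 cells, was led by Rtl4, Ncam2 and Cd55, with Sema3c, Ly6a and Tek among its leading genes and 1614 CPM of Mfap5. A cluster of 73 cells was led by Stmn2, with Col23a1, Trps1, Sox18, Ptch1 and Foxd1 among its leading genes and 478 CPM of Lef1. It held 138 CPM of Foxd1 against at most 23.8 CPM in any other cluster. Its cells were 25 and 8 in Ctrl and 16 and 24 in TKO, or 23.4%, 7.62%, 9.30% and 17.8% of each library's fibroblasts. A cluster of 47 cells was led by Car3, of whose UMIs 493 came from 1 cell, and by Lpl, which acts in triglyceride uptake, and carried 642 CPM of Fabp4, a fatty acid carrier of adipocytes. Eln led a cluster of 45 cells, at 2521 CPM, with Igfbp2 and Ltbp2, and 25 of these cells were from TKO replicate 1, or 14.5% of its fibroblasts against 5.61% to 5.93% in the other 3 libraries. After Hba-x, which came from 1 cell, Mgp, Tnmd, Acta1 and Rgs5 led 66 cells, a mix that holds tendon, muscle and mural genes. Prc1, Diaph3 and Top2a, genes of dividing cells, led a cluster of 39 cells, and the histone genes H2ac24, H1f5 and H2ac8 led a cluster of 34 cells. These clusters differed in layer genes, with 5249 CPM of Dlk1 in the first and 691 in the second, and 43.5 and 786 CPM of Crabp1. They held 1 and 13 cells of Ctrl replicate 1, 8 and 2 of Ctrl replicate 2, 20 and 10 of TKO replicate 1, and 10 and 9 of TKO replicate 2. The cluster led by Prc1 also held 7137 CPM of the haemoglobin gene Hbb-bs, against at most 17.6 CPM in the others of the 9. The last 2, of 42 and 31 cells, were led by Slit2, Pappa2 and Enpp2 and by Zfp536, Plxna4 and Crabp1. Each of the 9 held cells of all 4 libraries.

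Genes known to be raised in TKO keratinocytes were then read in the fibroblasts. This list of 8 was taken from earlier results on these libraries, so its direction in keratinocytes is given and not evidence. Gm42653 had 369 and 200 CPM in TKO keratinocytes and 5.76 and 3.39 CPM in TKO fibroblasts. Col28a1, a collagen chain, had 22.4 and 78.0 CPM in TKO keratinocytes and 1.82 and 8.89 CPM in TKO fibroblasts, where 19 of 21 UMIs in replicate 2 were in mixed cells. Npffr1, a neuropeptide receptor gene, had 21.8 and 25.9 CPM in TKO keratinocytes and 1.21 and 0.424 CPM in TKO fibroblasts. Gm11884 had 29.4 and 47.1 CPM in TKO keratinocytes, and its 7 UMIs in TKO fibroblasts were all in mixed cells. Over 6 such genes, Gria3 included, the median fibroblast level was 6.85% and 4.95% of the keratinocyte level in the TKO libraries, and 2.27% and 1.56% without mixed cells. The 12 keratinocyte marker genes gave 5.58% and 7.06%, and 1.46% and 1.01% without mixed cells. Krt5 and Krt14 are among these, and their low ratios were set by the rule.

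Gria3, a glutamate receptor subunit gene (chromosome X, 40489476 to 40767490), had a level of its own in fibroblasts. Fibroblasts had 71.1 and 79.0 CPM of it in Ctrl and 87.0 and 79.2 CPM in TKO (log2 fold change 0.11, SE 0.180, 95% confidence interval −0.33 to 0.54, edgeR adjusted p 1). Keratinocytes had 1.57 and 0.638 CPM in Ctrl and 67.2 and 44.2 CPM in TKO. Fibroblasts thus held the transcript in both genotypes, and the TKO keratinocyte level stood under it in both libraries. The gene overlaps Gm54484 on the same strand.

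Whether the genotype effect differed between the cell types was tested in 1 fit over the 8 sums, with library as a block. Of 19447 genes, 150 passed (edgeR adjusted p under 0.05, 0.771%), 94 with a lower and 56 with a higher effect in fibroblasts. Of the 94, 88 were called as raised in TKO keratinocytes, and of the 56, 42 were called as lowered there. In fibroblasts 0 of these genes were called. Without the mixed cells 239 genes passed, 139 of the 150 among them. The count was 714 without the filter on low counts, and 177 to 514 with a library left out, the highest without Ctrl replicate 2.

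**Figure D5:**
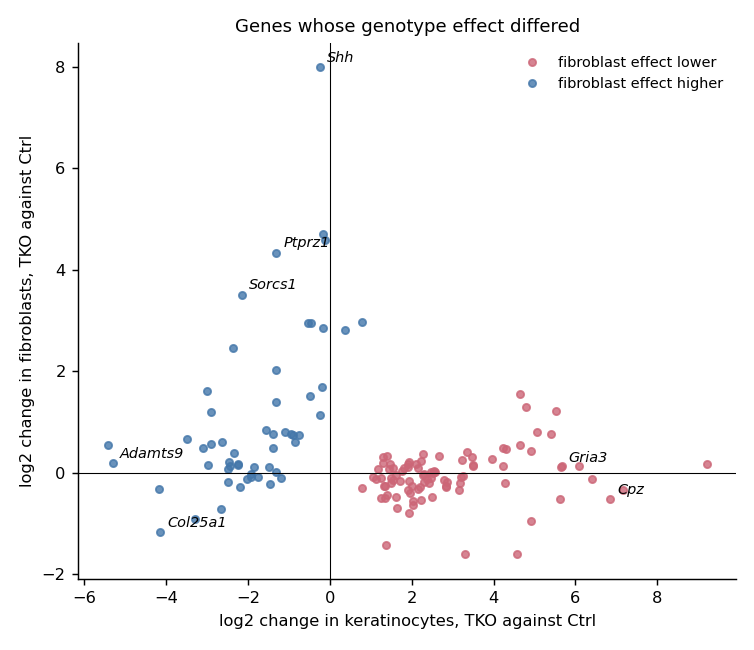
Log2 fold change in fibroblasts against that in keratinocytes, TKO over Ctrl, for 145 of the 150 genes whose effect differed between the cell types and that were tested in both. Genes with a lower effect in fibroblasts (red) spread along the right side at fibroblast changes near 0, and some genes with a higher effect, such as Shh, rise on the vertical axis instead.

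The 5 largest negative differences were those of Neto1, Gm41804, Nfam1, Cpz and Ddit4l. Cpz, a carboxypeptidase that binds Wnt proteins, had 68.8 and 97.3 CPM in Ctrl fibroblasts and 69.1 and 49.5 CPM in TKO fibroblasts, against 0 and 0.0236 CPM in Ctrl keratinocytes and 2.56 and 0.824 CPM in TKO keratinocytes. The difference of the log2 effects was −7.04 (SE 0.72, edgeR adjusted p 0.00223). For the predicted gene Gm41804, which overlaps Gm8184 on the same strand, fibroblasts had 11.6, 8.11, 4.55 and 11.9 CPM, and keratinocytes went from 0.806 and 0.780 to 120 and 107 CPM (−7.55, SE 0.60, edgeR adjusted p 7.33e-04). Neto1, an auxiliary subunit of glutamate receptors, had 5.20, 31.1, 28.2 and 12.3 CPM in fibroblasts, with a difference of −7.80 (SE 1.32, edgeR adjusted p 0.0395). Ddit4l, a stress-induced inhibitor of mTOR signalling, counted 26, 19, 16 and 53 UMIs in fibroblasts, and Nfam1 had 5, 6, 3 and 1 UMIs. For Gria3 the difference was −5.56 (SE 0.40, edgeR adjusted p 5.90e-04).

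Of the 5 largest positive differences, those of Hba-x and Shh rested on few fibroblasts. Hba-x, an embryonic globin, had 243 UMIs in 1 fibroblast of TKO replicate 1 and 0 in the other libraries (18.75, SE 1.44, edgeR adjusted p 0.00172). Shh was described above (11.48, SE 1.77, edgeR adjusted p 0.0275), and without the mixed cells its difference no longer passed (5.36, edgeR adjusted p 0.826). The long noncoding RNA A730049H05Rik had 13, 4, 23 and 21 UMIs in fibroblasts and 70, 32, 0 and 2 in keratinocytes (5.94, SE 1.02, edgeR adjusted p 0.034). It lies within Adamts9 on the opposite strand. Sorcs1 and Ptprz1 were lowered in keratinocytes, with log2 fold changes of −2.14 (edgeR adjusted p 0.00362) and −1.31 (edgeR adjusted p 0.0022), with differences of 5.69 (SE 0.53, edgeR adjusted p 0.00124) and 5.67 (SE 0.47, edgeR adjusted p 7.34e-04).

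Against 0.771% of all genes tested, 1 of 15 collagens (Col11a1), 1 of 19 collagen processing genes (Plod2), 1 of 8 small leucine-rich proteoglycans (Bgn), 0 of 15 elastic fibre genes, 1 of 11 basement membrane genes (Nid1) and 2 of 12 proteases and inhibitors (Adamts1 and Adamts9) passed this test of the difference between the cell types. So did 1 of 20 identity genes (Vim), 1 of 10 upper dermis genes (Ntn1) and 2 of 10 lower dermis genes (Mest and Plac8). Of the other lists, 1 of 12 keratinocyte genes (Epcam), 1 of 8 genes raised in TKO keratinocytes (Gria3), 0 of 18 dermal signals, 0 of 10 Wnt response genes and 0 of 15 cycling genes did. Adamts9 (chromosome 6, 92749680 to 92920520), a secreted protease, had 250 and 200 CPM in Ctrl fibroblasts and 309 and 217 CPM in TKO fibroblasts, whereas keratinocytes went from 36.7 and 38.1 CPM to 0.476 and 1.42 CPM (difference 5.49, SE 0.47, edgeR adjusted p 7.59e-04). Col11a1, a fibril-forming chain, had 48.0, 107, 132 and 99.9 CPM in fibroblasts and 0.115, 0.354, 7.62 and 4.30 CPM in keratinocytes (−4.09, SE 0.32, edgeR adjusted p 7.33e-04). Mest, an imprinted gene of mesoderm, had 453, 1002, 1001 and 852 CPM in fibroblasts and rose in keratinocytes from 1.96 and 3.21 to 33.9 and 23.6 CPM (−3.09, SE 0.23, edgeR adjusted p 5.90e-04). Nid1, which links laminin and collagen IV, had 402, 619, 450 and 562 CPM in fibroblasts and 0.507, 0.662, 3.01 and 2.72 CPM in keratinocytes (−2.34, SE 0.25, edgeR adjusted p 0.00306). Bgn ran the other way, lowered in keratinocytes from 4.61 and 5.65 to 2.11 and 1.55 CPM and at 277, 303, 335 and 309 CPM in fibroblasts.

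The collagen transcripts of the rule in the keratinocyte sums are given as a description. Summed over Col1a1, Col1a2 and Col3a1, keratinocytes had 7.65 and 11.7 CPM in Ctrl and 10.3 and 6.29 CPM in TKO, so the groups overlapped, against 29782 to 38481 CPM in fibroblasts. Keratinocytes with 20 or more collagen UMIs per 10000 had been left out by the rule, so these low levels were in part set by it. The amount of fibroblast RNA in the keratinocyte sums was not tested.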

How the data were processed

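The authors made 10x Genomics 3' v3 libraries from single embryos, mapped them to GRCm39 and deposited, for each library, a filtered matrix of raw UMI counts over 56980 genes. The file headers name Cell Ranger 7.1.0, the study's methods another version. The deposited counts are not normalized. Members and gene lists were chosen with earlier results of these data known.

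Counts were summed over the fibroblasts, or keratinocytes, of each library, since cells are not replicates. The 4 sums were tested with edgeR 4.0.16 (R 4.3.3) by the quasi-likelihood test with TMM factors, the default filter on low counts, genotype as the only term and Benjamini-Hochberg adjusted p under 0.05. The comparison of cell types added library as a block. Intervals of fold changes are 95% and use the t distribution of the fit. Shares were compared by an exact permutation test, after thinning cells to 4000 UMIs where markers were counted. Each library is 1 embryo, so p-values measure the spread between embryos and their libraries. Clusters came from scanpy 1.11.5 (1500 variable genes, 20 components, 15 neighbours, resolution 1).

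Alternatives were DESeq2 1.42.0, RLE factors, no filter, a replicate block, each library left out, 1000 genes per cell, a collagen minimum of 50, removal of the top Scrublet scores (21 fibroblasts), removal of 272 cells with other mesenchymal markers, 8000 UMIs and 3 markers. Leaving out the 19 mixed cells, the crossed pairing and the cut of keratinocytes to equal cell numbers (the first in barcode order) were chosen after seeing the data.

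Genes were named by rule: the targeted and sex-linked genes, the called genes or, where none was called, the 5 with the smallest p in each direction, the 5 most abundant members of each list with those called and those at 0, the 15 leading genes over keratinocytes, and the 5 largest differences between cell types in each direction. List members named beyond these, Bst2 and Plce1 were chosen after their values were seen. Some genes that the rule names are not reported here. Positions come from GENCODE M39, which left 744 genes without one. A UMI was not assigned between near-identical copies here, and overlapping genes are uncertain to that extent.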

Additional observations from a re-analysis of the deposited data

Results flagged for a closer look

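The genotype effect differed between fibroblasts and keratinocytes for 150 genes by the test of the difference itself (edgeR, library as a block, adjusted p under 0.05). The 5 genes named for a lower effect in fibroblasts were Neto1 (−7.80 on the log2 scale), Gm41804 (−7.55), Nfam1 (−7.35), Cpz (−7.04) and Ddit4l (−6.59). Those named for a higher effect were Hba-x (18.75), Shh (11.48), A730049H05Rik (5.94), Sorcs1 (5.69) and Ptprz1 (5.67).

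Of these, Gm41804, Cpz, Sorcs1 and Ptprz1 passed with each library left out in turn. Neto1 did not pass without Ctrl replicate 2 (−5.95, edgeR adjusted p 0.055). Nfam1 did not pass without Ctrl replicate 1 (−7.20, adjusted p 0.0752) or without TKO replicate 1 (−7.03, adjusted p 0.0637). Ddit4l (−6.72, adjusted p 0.0829), A730049H05Rik (6.16, adjusted p 0.119) and Shh (11.59, adjusted p 0.0628) did not pass without Ctrl replicate 1. Hba-x, present in 1 fibroblast of TKO replicate 1, did not pass without that library or without Ctrl replicate 1. The effects behind Shh and Hba-x lie in 7 and 1 fibroblasts, and the cause was not tested.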

How the results depend on the processing

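Of 228 values under alternatives other than leaving out a library, 205 kept their direction and their side of the threshold. Against 0 called genes in fibroblasts, DESeq2 called 1, DESeq2 without mixed cells 2, and edgeR without its filter 202, of which 163 had been tested with the filter and 39 had not. The genes given for their small p were called in that fit. Leaving out a library gave 0 to 11 calls: 3 without Ctrl replicate 1 (Rps3a3, Hbb-bt, Hbb-bs), 3 without TKO replicate 1 (Car3, Krt16, Bst2) and 11 without TKO replicate 2, among them Ptprz1, with the lone sample of a group assumed to vary like the other group. The replicate block called 0 (332 at an unadjusted p under 0.05). Same-numbered libraries did not deviate together (correlation −0.21 over 5602 genes), and with the crossed pairing as a block 0 genes were called. The 150 differences between cell types became 714 without the filter, 284 at a collagen minimum of 50, 239 without mixed cells and 177 to 514 with a library left out (514 without Ctrl replicate 2, 353 without TKO replicate 1, 391 without TKO replicate 2). Requiring 3 markers turned the differences in share to 0.36 percentage points for condensate, −3.01 for upper dermis and −1.77 for lower dermis, and the last was −0.54 without mixed cells. With a library left out, these ranged from −4.45 to 2.34, −10.2 to 13.3 and −11.2 to 12.9 points, the cycling share from 4.40 to 12.4 and the fibroblast share from 2.24 to 4.74. Setdb1 turned to 0.056 with doublets removed and 0.14 without other mesenchymal cells, and with a library left out it ranged from −0.27 to 0.27, as Suv39h2 did from −0.51 to 1.21. Causes were not tested. Genes under 10 CPM rest on few UMIs, and 2 libraries a group limit all comparisons.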

Other observations

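Some fibroblast values were set by 1 library or 1 cell. Rpl29, a ribosomal protein gene with many near-identical copies, had 18.5, 18.9, 627 and 7.62 CPM in Ctrl replicates 1 and 2 and TKO replicates 1 and 2, and was seen in 167 of 172 fibroblasts of TKO replicate 1. In keratinocytes it was also high in TKO replicate 1 only, at 921 CPM. The pseudogene-like Rps3a3 had 1382, 0.676, 1164 and 1270 CPM in fibroblasts and was low in Ctrl replicate 2 in keratinocytes too. Of the 559 UMIs of Car3, a carbonic anhydrase of adipocytes and muscle, in TKO replicate 2, 493 were in 1 cell. These genes were chosen after their values were seen.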
